A study of Caenorhabditis elegans with 2 samples.

Results

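The genes described here build the anterior-posterior axis of the *C. elegans* embryo and place its mitotic spindle. They are *par-1*, *par-2*, *par-3*, *par-4*, *par-5*, *par-6* and *pkc-3*, which encode the polarity proteins, and *lin-5*, *gpr-1* and *gpr-2*, which encode proteins that position the spindle. The 10 genes were chosen by name, out of 19985 protein-coding genes in the annotation, with earlier results of these data known. A region was given to a gene when its summit lay in the gene body or up to 2000 bp upstream. The authors' optimal list of 2498 regions held 9 such entries in 8 intervals, since 1 interval at *lin-5* has 2 summits.

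EFL-1, a worm E2F transcription factor, was mapped by chromatin immunoprecipitation and sequencing (ChIP-seq) in whole young adults of mixed sex. All worms were of strain YL445, which is mutant for *unc-119* (allele ed3, on chromosome III) and carries the transgene vrIs81. This transgene joins the *pie-1* promoter to EFL-1 tagged with GFP and FLAG, followed by the *efl-1* 3′ UTR, and holds *unc-119*(+). There was 1 group of 2 biological replicates and no comparison group, so the values below are descriptions within ranked lists, set beside the same measure over all genes or all regions. The fusion is thus driven by *pie-1*, a promoter used for germline expression, and not by the promoter of *efl-1*. The antibody's target is labelled efl-1 in one place and as the eGFP fusion elsewhere. The DNA came from whole animals, so binding in a few cells and weaker binding in many cannot be told apart. Neither control libraries nor non-transgenic worms were analysed here.

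As background, the PAR proteins sort into opposing domains at the cortex of the fertilised egg. PAR-3, PAR-6 and the atypical protein kinase C PKC-3 hold the anterior cortex, and PAR-1 and PAR-2 hold the posterior. LIN-5 and the near-identical GPR-1 and GPR-2 then link the cortex to dynein, whose pull on astral microtubules shifts the spindle and makes the first division unequal. Oocytes supply the egg with the products of these genes. E2F factors bind DNA with a partner protein of the DP family, at sites with a GC-rich core.

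Sequence at or near the summits is shown first, because the regions differ in whether an E2F core lies close to the summit. The core was searched as TTCCCGC or TTCGCGC, or else as TTGCCGC or TTGGCGC, on both strands, within 50 bp of the summit. The stretches below are read 5′ to 3′ on the strand of the gene they lie at (ce11; RefSeq copy of WBcel235), with the core in capitals. A core on the opposite strand therefore appears as its reverse complement. The *par-2* stretch is chrIII:1080776-1080818 (+), the *par-3* stretch chrIII:5663715-5663775 (+), the *lin-5* stretch at its strongest summit chrII:7860285-7860345 (+), the *par-5* stretch chrIV:11822593-11822653 (-) and the *pkc-3* stretch chrII:5379694-5379754 (+). The stretches of *par-2*, *par-3* and *lin-5* were placed around the core and not the summit. That of *par-2* does not reach its summit, which lies at chrIII:1080767. The last pair is centred on the summit and is shown because no core lay within 50 bp of those summits.
par-2: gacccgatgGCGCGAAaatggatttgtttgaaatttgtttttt
par-3: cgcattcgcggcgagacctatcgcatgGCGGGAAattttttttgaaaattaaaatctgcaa
lin-5: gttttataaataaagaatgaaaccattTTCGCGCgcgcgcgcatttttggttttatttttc
par-5: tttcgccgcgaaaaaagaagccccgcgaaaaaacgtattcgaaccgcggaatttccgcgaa
pkc-3: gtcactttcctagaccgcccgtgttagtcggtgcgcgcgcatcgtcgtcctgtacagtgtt

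EFL-1::GFP regions of the optimal list lay at 7 of the 10 genes, namely *par-2*, *par-3*, *par-5*, *pkc-3*, *lin-5*, *gpr-1* and *gpr-2*. Over all protein-coding genes, 16.4% had an optimal region in the same window. No optimal region lay at *par-1*, *par-4* or *par-6*. Regions were ranked by the authors' signal value, with rank 1 the highest. The strongest region of the 10 genes had a median rank of 187.5 in the pooled list of 30000 regions, against 15943 over all 19985 protein-coding genes and 1080 over the 3269 genes with an optimal region. A gene with no pooled region was placed after the last rank in these medians.

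The same 7 genes were found in each replicate alone. When each replicate's list was limited to its 2498 regions of highest signal, called its top regions, 7 of the 10 genes had one in replicate 1, against 16% of all genes, and 7 had one in replicate 2, against 16.2%. All 7 also had a region in the upper 50% of the optimal list, which held a region for 9.4% of all genes. In the relaxed pooled list, which includes background, all 10 genes had a region, as did 67.6% of all genes.

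**Figure D1:**
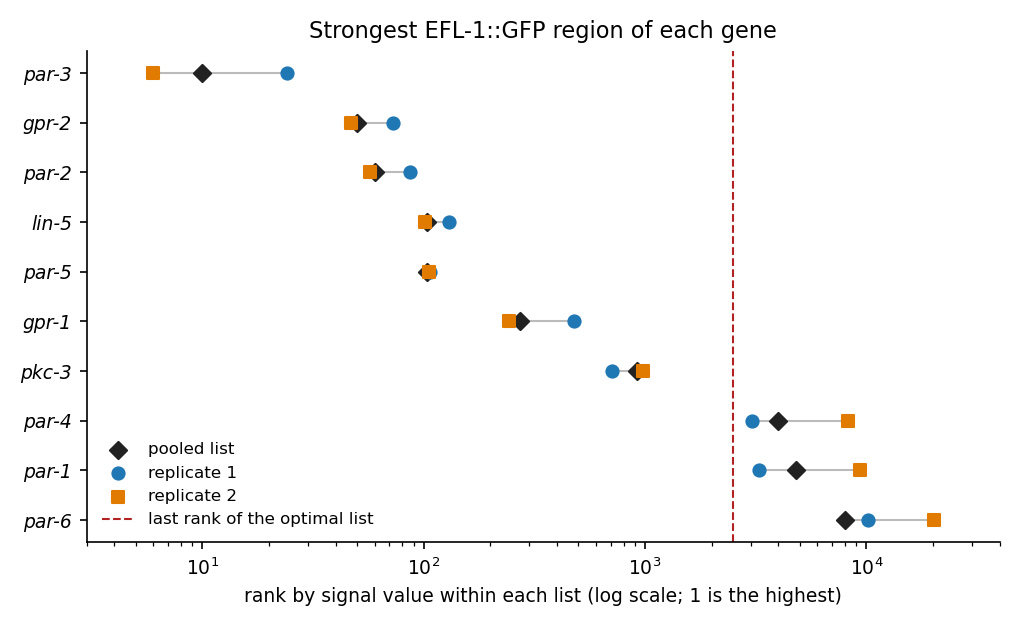
Rank of the strongest pooled region of each of the 10 genes, by signal value on a log axis, in the pooled list (diamonds) and for the overlapping region in replicate 1 (circles) and replicate 2 (squares); the dashed line marks rank 2498, the end of the optimal list. All 3 ranks of 7 genes lie left of the line, from 6 for *par-3* to 978 for *pkc-3*, and those of *par-4*, *par-1* and *par-6* lie right of it.

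Among the anterior polarity genes, *par-3* had the highest value. PAR-3 is a PDZ-domain scaffold of the anterior complex. Its region lay at chrIII:5663534-5663914, in intergenic DNA, and its summit was placed -513 bp from the annotated start of *par-3* (WBGene00003918, + strand). The signal value was 1134 in the pooled list, where the region ranked 10. It was 236 in replicate 1, at rank 24, and 910 in replicate 2, at rank 6. The region was thus among the highest of both lists, and no other gene's window held its summit. The scale of the signal value differs between lists, so its level was not compared between replicates. The region just above it, at rank 9 with a signal value of 1148, lay in mitochondrial DNA, 256 bp into the gene WBGene00000829 and -918 bp from *COX3*, and ranked 2 in replicate 1 and 24 in replicate 2. The region just below it, at rank 11 with 1133, lay -637 bp from *hcp-3*, the gene of the histone H3 form found at centromeres.

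The other anterior genes stood lower. PKC-3 is the kinase of the complex, and the region at *pkc-3* (WBGene00004034, + strand), chrII:5379556-5379891, had a signal value of 99.8 and ranked 920. It ranked 710 in replicate 1, with a signal value of 35.2, and 978 in replicate 2, with 66.1. It was the lowest of the 7 strongest regions in every list and the only one of them with a better rank in replicate 1. Its summit, at -303 bp, lay in an exon of *F09E5.22*, a non-coding RNA on the opposite strand, and in no other protein-coding gene's window. At *par-6*, which encodes the other PDZ-domain protein of the complex, no optimal region was found.

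The posterior gene *par-2* had a strong region that it shared with neighbours. PAR-2 is a RING-finger protein that keeps the anterior complex from the posterior cortex. The region, chrIII:1080594-1080901, had a signal value of 586 and ranked 60. It was at rank 87 in replicate 1, with a signal value of 131, and at rank 57 in replicate 2, with 455. The replicate summits were 2 bp apart. Although the summit lay -634 bp from the 5′ end of *par-2* (WBGene00003917, + strand), it lay 8 bp into *rab-18*, in its annotated 5′ UTR on the opposite strand. RAB-18 is a small GTPase of the Rab family. The summit also lay -134 bp from *kbp-4*, a kinetochore gene on the same strand that ends 100 bp before *par-2* begins. Which of the 3 genes the region acts on, if any, cannot be told from these lists.

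The region at *par-5* was of similar rank. PAR-5 is a 14-3-3 protein needed for the domains to stay apart. Its strongest region, chrIV:11822461-11822799, had a signal value of 474 and ranked 104, and it held ranks 107 in replicate 1, with a signal value of 121, and 106 in replicate 2, with 350. The summit lay -699 bp from the 5′ end of *par-5* (WBGene00003920, - strand), inside an intron of *M117.3*, a gene on the opposite strand whose 5′ end is nearer, at 417 bp. The 5′ end of *M117.12*, a non-coding RNA on the strand of *par-5*, was also nearer, at -461 bp. A second region, chrIV:11820713-11821048, lay in the 3′ UTR of *par-5*, 1043 bp into the gene. It also lay in the windows of *M117.3*, at -1325 bp, and *M117.11*, a non-coding RNA, at -1111 bp, both on the opposite strand. Its signal value was 36.6, at rank 2379, close to the lowest value of the optimal list, 34.9. It ranked 2088 in replicate 2, with a signal value of 30.8, and was missing from the relaxed list of replicate 1. The strong upstream region was thus seen in both replicates and the weak one in the gene body in only 1. This was the one optimal region inside a body of the 10 genes, against 2.97% of all genes with one there.

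Of the spindle genes, *lin-5* had a region with 2 summits. LIN-5 is a coiled-coil protein related to vertebrate NuMA that recruits dynein. The interval, chrII:7860160-7860619, is 460 bp wide and intergenic, and its summits are 199 bp apart. The upstream summit, -253 bp from the start of *lin-5* (WBGene00002994, + strand), had a signal value of 474 and ranked 103. It ranked 130 in replicate 1, with a signal value of 109, and 101 in replicate 2, with 356. The other summit, at -54 bp, had a signal value of 80.4 and ranked 1111. It ranked 4834 in replicate 1, with 8.62, outside that replicate's top regions, and 1116 in replicate 2, with 58.7. The upstream summit was therefore among the top regions of both replicates and the weaker one among those of replicate 2 only. No other gene's window held either summit.

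*gpr-2* and *gpr-1* encode paralogous GoLoco-domain proteins that bind Gα and LIN-5. The *gpr-2* region (WBGene00001689, - strand), chrIII:9393311-9393618, had a signal value of 659 and ranked 50. It ranked 73 in replicate 1, with 143, and 47 in replicate 2, with 521. The *gpr-1* region (WBGene00001688, + strand), chrIII:8628505-8628779, had 255 and ranked 271, with ranks of 478 in replicate 1, at a signal value of 49.0, and 242 in replicate 2, at 206. Both lists placed *gpr-2* above *gpr-1*, and the ratio of signal values, *gpr-2* over *gpr-1*, was 2.58 pooled, 2.92 in replicate 1 and 2.53 in replicate 2. The *gpr-2* summit lay at -306 bp, in intergenic DNA shared with *rgr-1*, a Mediator subunit gene on the opposite strand whose 5′ end is nearer, at -260 bp. The *gpr-1* summit lay at -268 bp, with *polk-1*, which encodes a DNA polymerase of the kappa type, nearer on the opposite strand at -74 bp. The neighbours of the paralogs are thus different genes.

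The regions at *gpr-2* and *gpr-1* lie mostly in duplicated sequence, which bears on how far their values are separate. The genes aligned from -401 bp of *gpr-2* and -414 bp of *gpr-1* onward. Upstream of the 5′ ends, 370 of 393 aligned bases were identical (94.1%), and in the gene body 1785 of 1836 (97.2%). Within the *gpr-1* region of 275 bp, 242 bases aligned and 228 of them were identical (94.2%), with a longest identical run of 43 bp. The *gpr-2* summit, moved to its aligned place, lay 46 bp from the *gpr-1* summit in the pooled list, 19 bp in replicate 1 and 29 bp in replicate 2. The sources used here state neither the read length nor what was done with reads that match both copies, so the part that misplaced reads play in either value was not tested.

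**Figure D2:**
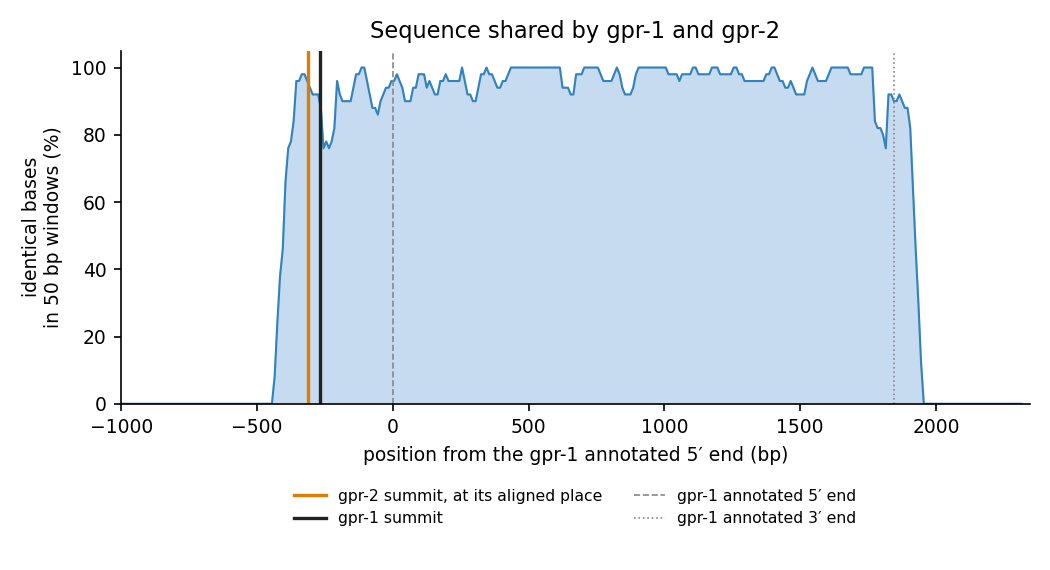
Share of identical bases, in percent and in 50 bp windows, between *gpr-1* and its aligned copy *gpr-2*, against position from the annotated 5′ end of *gpr-1*; vertical lines mark the *gpr-2* summit at its aligned place, the *gpr-1* summit and both ends of *gpr-1*. The summits lie 46 bp apart, inside the aligned stretch that begins at -414 bp.

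The copies differ within their cores. The stretches printed here, chrIII:9393416-9393475 (-) for *gpr-2* and chrIII:8628613-8628672 (+) for *gpr-1*, align base for base, and capitals mark the core of each.
gpr-2: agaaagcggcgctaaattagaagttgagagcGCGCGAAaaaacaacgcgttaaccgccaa
gpr-1: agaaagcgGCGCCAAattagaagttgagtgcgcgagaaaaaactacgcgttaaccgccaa
Positions are counted from 1 at the 5′ end of each printed stretch, with the *gpr-1* base first. The change C13T falls in the core of *gpr-1* and A35C in that of *gpr-2*, so each copy has a core that the other lacks. The other changes, T29A and T44A, lie outside both cores. The centre of the *gpr-2* core (TTCGCGC) lay 29 bp downstream of the *gpr-2* summit, and that of the *gpr-1* core (TTGGCGC) lay -40 bp from the *gpr-1* summit, upstream of it.

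Counted over all entries, 6 of the 9 optimal regions of these genes had a core within 50 bp of the summit, against 30.7% of all 2498 optimal regions. The 30.7% covers every rank of the optimal list, and no core share over regions of like rank was counted. The count is therefore not read as a trait of these genes. For scale, a window of 101 bp centred 250 bp upstream of the gene's 5′ end held a core in 3.47% of protein-coding genes. Core and summit were close at *lin-5*, where TTCGCGC was centred -6 bp from the strongest summit. TTCGCGC lay 21 bp downstream of the summit at *par-2*, and TTCCCGC lay 25 bp downstream at *par-3*. Of the 7 strongest regions, 5 had a core, and those of *par-5* and *pkc-3* had none. A match describes the letters in the window and does not show a bound site.

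A second pattern, TTTGAA or TTCGAA on either strand, was searched in the same windows because it resembles the cell cycle homology region of DREAM complex targets. It lay within 50 bp of 5 of the 9 summits, at *par-2*, at *par-3*, at both *par-5* regions and at the weaker *lin-5* summit, against 38.8% of all optimal regions and 34.2% of the promoter windows. Core and second pattern occurred together in 3 of 9, against 14.2% of optimal regions. These were at *par-2*, *par-3* and the weaker *lin-5* summit. The shares of optimal regions given here likewise cover every rank of the list.

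All 7 strongest summits lay upstream of the gene, between -699 and -253 bp from its 5′ end, with a median of -306 bp. The 7 genes had an optimal region from 1000 bp upstream to 200 bp downstream of a transcript's 5′ end, against 12.6% of all genes. Those at *par-3*, *lin-5* and *pkc-3* were in no other protein-coding gene's window, and the other 4 were nearer to the 5′ end of another gene. When each region was given to the nearest gene only, 4 of the 10 genes had one, against 10.4% of all genes. These were *par-3*, *pkc-3*, *lin-5* and, through its weak region in the gene body, *par-5*.

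**Figure D3:**
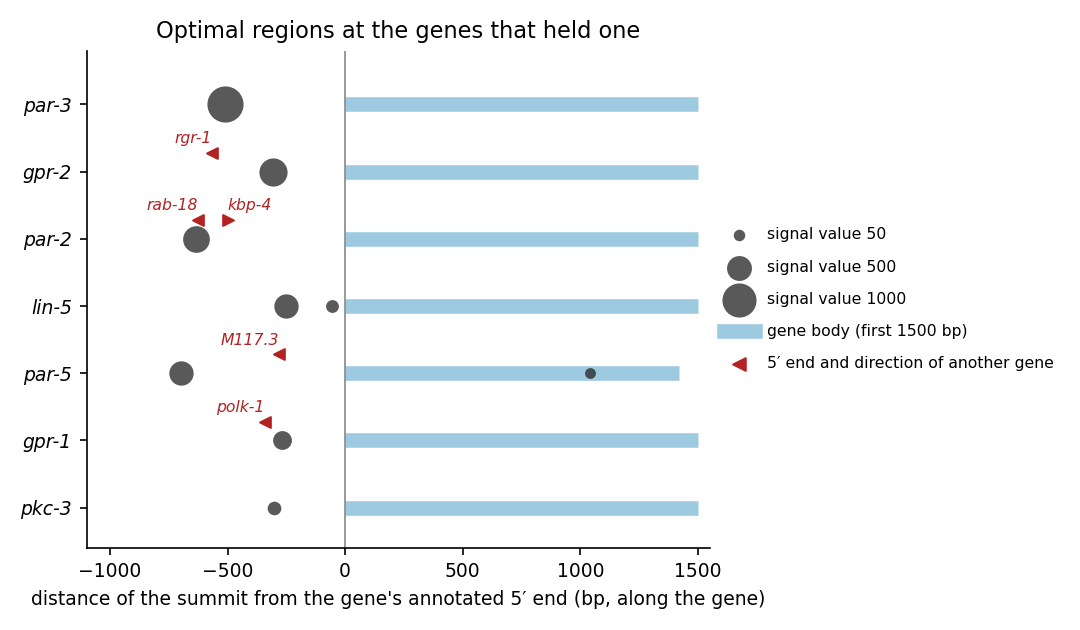
Distance of each optimal summit from the annotated 5′ end of its gene, in bp along the gene, for the 7 genes with an optimal region in order of rank; the area of a point grows with the signal value and red arrowheads mark the 5′ ends and direction of other protein-coding genes whose windows hold the strongest summit. The strongest summits lie upstream, from -699 bp at *par-5* to -253 bp at *lin-5*, and the *par-2* summit lies beside the 5′ end of *rab-18*.

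Between replicates, 8 of the 9 regions overlapped a top region of both by at least 1 bp, against 72.9% of all optimal regions. That share covers every rank of the optimal list, whereas the 7 strongest regions here ranked from 10 to 920. No share over regions of like rank was counted. The exception among the 9 was the weak *par-5* region. The count of 8 takes in both *lin-5* summits, because they share an interval, although the weaker summit's own rank in replicate 1 was 4834. In the 8 regions present in both relaxed lists, the replicate summits were 2 to 27 bp apart, and the median over 2440 optimal regions was 23 bp. The order of the strongest regions was *par-3*, *gpr-2*, *par-2*, then *lin-5* and *par-5*, then *gpr-1* and *pkc-3* in both replicates. *lin-5* and *par-5* changed places between replicates and had pooled ranks 1 apart, so they are not separated by these data. Of the 7 strongest regions, 6 ranked higher in replicate 2, and 54.9% of the 2440 regions did so.

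**Figure D4:**
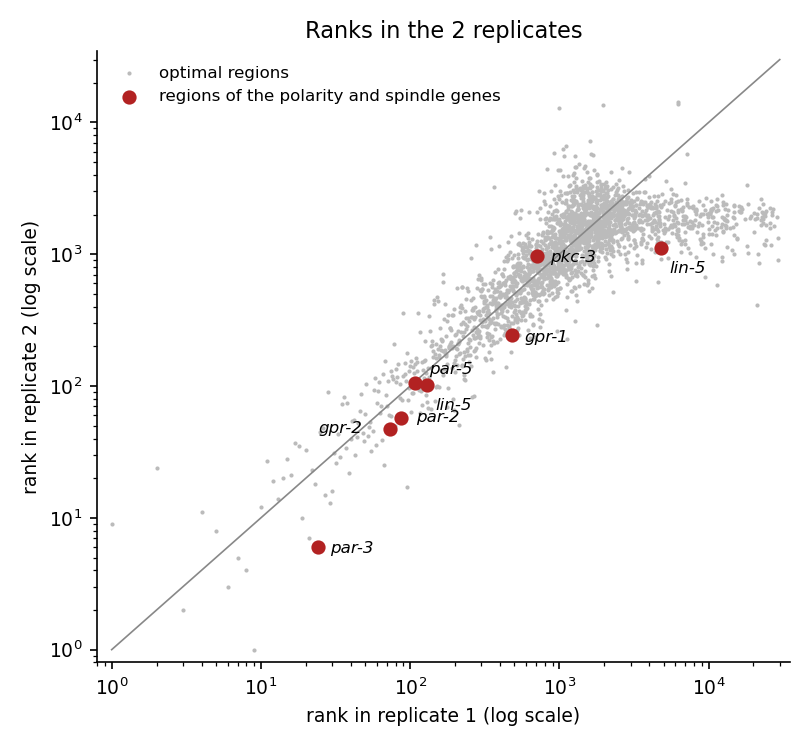
Rank of each optimal region in replicate 1 (horizontal) and replicate 2 (vertical), on log axes, with the regions of the polarity and spindle genes in red and a line where both ranks are equal. The points run from 24 and 6 for *par-3* to 4834 and 1116 for the weaker *lin-5* summit, and these lie farthest from the line, both on the side of a better rank in replicate 2.

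The relaxed lists show what lay at the 3 genes without an optimal region. PAR-4 is the worm LKB1 kinase, and the highest pooled region at *par-4* (WBGene00003919, + strand), chrV:18098010-18098345, had a signal value of 22.6 and ranked 3973. It ranked 3045 in replicate 1 and 8251 in replicate 2, with its summit at -509 bp in intergenic DNA. Replicate 1 had a higher region, at rank 2642, inside the gene at 3031 bp from its 5′ end. That summit lay only 130 bp past the nearest annotated 5′ end of a *par-4* transcript. PAR-1 is a posterior kinase of the MARK family. Its gene (WBGene00003916, - strand) is 33335 bp long and held 11 pooled regions, more than any other of the 10. The highest of them, chrV:14133002-14133337 in an intron, had a signal value of 19.6 and ranked 4786. It ranked 3271 in replicate 1 and 9398 in replicate 2, and its summit was -816 bp from the nearest *par-1* transcript 5′ end. Replicate 2's own highest region at *par-1*, at rank 5309, lay elsewhere, in coding sequence, -1496 bp from the nearest transcript 5′ end. At both genes the highest region thus differed between the replicates, and none of these was among a replicate's top regions.

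At *par-6* (WBGene00003921, + strand) the highest pooled region had a signal value of 14.3 and ranked 7984, against a lowest value of 34.9 in the optimal list. It ranked 10177 in replicate 1 and 20279 in replicate 2. Its summit lay at -1000 bp, in an intron of *T26E3.4*. Each replicate had its highest *par-6* region elsewhere, at 243 bp and rank 5243 in replicate 1 and at -32 bp and rank 13467 in replicate 2. The replicate 1 summit was -1 bp from the nearest *par-6* transcript 5′ end. The values at *par-6* were thus the lowest of the 10 genes. None of the highest pooled regions at *par-1*, *par-4* and *par-6* had a core within 50 bp. Most optimal regions had none either, since 30.7% of them held a core. The share over weaker pooled regions was not counted, so this is not read as a trait of these genes. Sequencing depth is unknown here, so a weaker signal at these genes may lie below what the lists can show.

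Among all regions of the relaxed pooled list, 51 lay in the windows of the 10 genes, with 46 in replicate 1's list and 57 in replicate 2's. Of the 51 pooled regions, 9 were in the optimal list. *par-2* had 10 pooled regions, of which 1 was in the optimal list. *gpr-2* had 1, and it was the optimal one.

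Other genes of the same pathways were drawn from 3 lists, beside the 16.4% of all genes. Of 15 genes of polarity and the cortex, 9 had an optimal region, and the median rank of the strongest region was 2191. In the narrower window around transcript 5′ ends, 7 of the 15 had one, against 12.6% of all genes. Signal values were 725 at *mex-5* and 409 at *mex-6*, which encode CCCH zinc-finger proteins that act downstream of PAR-1. *lgl-1*, a posterior cortical protein gene, and *strd-1*, which encodes a partner of PAR-4, had none in the optimal list.

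Of 15 genes of G protein signalling and dynein force, 5 had an optimal region, and the median rank was 3736. Around transcript 5′ ends, 4 of the 15 had one, without *ric-8*, whose summit lay at -1856 bp. The highest signal values were at *dhc-1*, the dynein heavy chain gene, with 286, and *ric-8*, which encodes a Gα regulator, with 193. Next were *let-99*, which encodes a DEP-domain protein that restricts GPR-1 and GPR-2 at the cortex, with 183, and *dli-1*, a dynein light intermediate chain gene, with 58.7. *goa-1* and *gpa-16* had none. These encode the Gα proteins that GPR-1 and GPR-2 bind.

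Of 4 relatives of these genes, 1 had an optimal region, and the median rank was 4552.5. It was *ftt-2*, which encodes the other 14-3-3 protein, with a signal value of 56.6 at rank 1596, against 474 at rank 104 for *par-5*. The *ftt-2* region ranked 1495 in replicate 2 but 4571 in replicate 1, outside that replicate's top regions. The protein kinase C genes *pkc-1* and *pkc-2* had none, whereas *pkc-3* had 99.8. The differences between paralogs are values in one pooled list and were not tested.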

How the data were processed

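ChIP-seq peak lists in narrowPeak format were analysed for 1 group of 2 biological replicates. Per the deposited description, the authors made a relaxed list for each replicate and for the pooled alignments, and an optimal list of pooled peaks passing an irreproducible discovery rate threshold. The signal value per region is the authors' own, and its scale is not stated. The −log10 q-value is also the authors' and was not used for ranking. The sources used here name no aligner or peak caller, and depth is unknown. Lists in ce11 were used, with genes from Ensembl release 115 and bases from RefSeq WBcel235. A summit was given to every gene whose body or 2000 bp upstream held it. *gpr-1* and *gpr-2* were aligned with biopython 1.88 (match 2, mismatch -3, gap -6 to open and -1 to extend). Python 3.11.15, numpy 2.4.6, pandas 2.3.3 and matplotlib 3.10.9 were used, and assignment was tested on simulated data. No test was made between groups, since there is 1. Named genes are the 10 genes, those sharing their regions, the genes ranked directly above and below the strongest region, and, from each related list, up to 4 with the highest signal and the first 2 listed without a region. Members and lists were chosen with earlier results of these data known. Some genes that this rule names, and 1 stretch of sequence, are not reported here.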

Additional observations from a re-analysis of the deposited data

How the results depend on the processing

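The count of 7 of 10 genes with an optimal region stayed at 7 in the window around transcript 5′ ends, in the upper 50% of the optimal list and with either replicate left out, and was 10 with any pooled region. It was 1 with the gene body only and 4 with the nearest gene only. Counting *gpr-1* and *gpr-2* once, an alternative chosen after seeing the data, gave 6. The 9 optimal regions were 1 with the gene body only, 8 around transcript 5′ ends and 8 in the upper 50%, and 7 to 9 with a replicate left out. Of these 9, those overlapping top regions of both replicates were 5 in place of 8 when a reciprocal overlap of 50% was required. Of all optimal regions, 57.3% did so, a similar share. With summits within 100 bp, also chosen after seeing the data, the count was 7 of 9, against 69.0% of all optimal regions. Regions with a core were 6 within 100 bp and 5 for a core with 1 more T, in place of 6. The same shares over all optimal regions were 36.1% within 100 bp and 17.1% for the longer core. Leaving out a replicate gave rank 6 or 24 for *par-3*, in place of 10, and rank 478 for *gpr-1* without replicate 2, in place of 271. The other rank values with a replicate left out moved by less than 1.5 times. These make 18 only with the ranks in the window around transcript 5′ ends, where each gene kept the same region and so the same rank. No paired analysis was possible because there is 1 group.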
